A study of Homo sapiens with 8 samples.

Results

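TBX3 and 8 other transcription factors of the mammary epithelium (TBX2, GATA3, FOXA1, ESR1, TFAP2A, TFAP2C, SOX9 and RUNX1) were followed in MDA-MB-231 cells, a human cell line established from a breast cancer that lacks the hormone receptors and HER2. They are 9 of the 60646 genes in the count table, found there by symbol. TBX3 was selected on the loss of its counts in the knockout of these same samples, so its values are given as a description without a test. The other 8 were chosen for their role in the mammary lineage. Of the 9 factors, 8 passed the filter on low counts, TBX3 through the wild-type samples, and TBX2 did not pass.

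The 4 knockout samples are labelled DOT1L/+ KO and were made with a guide RNA against exon 1 of DOT1L, the methyltransferase of histone H3 lysine 79. The 4 wild-type samples are the same line with an unedited DOT1L gene. Both groups grew in DMEM with 5% FBS and were collected the day after plating. The number of edited alleles, whether the knockout is 1 clone, and whether samples of a group are separate cultures are not in the labels. The p-values therefore cover the spread among these samples alone, and that spread may be technical. Several of the factors belong to a luminal programme that is weak in lines of this kind. RNA was sequenced as stranded libraries after removal of ribosomal RNA, with 40103408 to 50031412 counts per sample, so 1 count stood for 0.0198 to 0.0250 CPM (counts over the library total times its trimmed-mean factor).

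DOT1L itself was at 85.3, 78.1, 83.2 and 92.3 CPM in knockout replicates 1, 2, 3 and 5, against 114.7, 100.9, 103.3 and 118.3 CPM in the same replicates of the wild-type. DOT1L fell by 0.37 on the log2 scale (SE 0.06, adjusted p = 2.83e-05). A gene-level count takes in reads from an edited allele and does not show how much intact transcript was left. A list of 6 genes that mark the line as mesenchymal-like summed to 6512 to 6920 CPM in knockout samples and 5936 to 6588 CPM in wild-type samples. VIM, the largest part of that sum, rose, with 3871 CPM in the knockout and 2941 CPM in the wild-type (log2 change 0.40). AXL (-0.30) and EGFR (-0.39) fell, and CD44, CAV1 and PLAUR did not pass. Adjusted p-values here come from edgeR's quasi-likelihood test over 19877 genes with Benjamini-Hochberg adjustment, and a gene is said to have risen or fallen where this is below 0.05. At that threshold 47.6% of all genes tested were called, 23.9% higher and 23.6% lower in the knockout.

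The mammary gland is laid down in the embryo under WNT, FGF and BMP signals, and TBX3, a T-box protein that mostly represses transcription, is needed for the first mammary buds in mouse. In the adult gland GATA3 and FOXA1 work with the oestrogen receptor ESR1 in luminal cells, and FOXA1 opens chromatin for the other factors. TFAP2A and TFAP2C are AP-2 proteins that act in luminal cells and in their precursors, RUNX1 restrains oestrogen receptor activity in luminal cells, and SOX9 marks progenitors.

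Promoter sequence of GATA3 and RUNX1 is shown because both genes rose in the knockout and each window, the 250 bases before a RefSeq start in GRCh38.p14, lies outside annotated exons and holds the consensus of the AP-2 factors. Each is written 5′ to 3′ on the strand of the gene, with matches to GCCNNNGGC in capitals. The GATA3 window is chr10:8045083-8045332 on the plus strand, and that of RUNX1 is chr21:34888700-34888949 on the minus strand.
GATA3: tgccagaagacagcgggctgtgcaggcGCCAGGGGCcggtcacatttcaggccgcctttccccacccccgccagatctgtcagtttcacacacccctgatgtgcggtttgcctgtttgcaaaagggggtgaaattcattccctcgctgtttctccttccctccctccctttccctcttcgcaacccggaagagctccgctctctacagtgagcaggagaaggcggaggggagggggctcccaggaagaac
RUNX1: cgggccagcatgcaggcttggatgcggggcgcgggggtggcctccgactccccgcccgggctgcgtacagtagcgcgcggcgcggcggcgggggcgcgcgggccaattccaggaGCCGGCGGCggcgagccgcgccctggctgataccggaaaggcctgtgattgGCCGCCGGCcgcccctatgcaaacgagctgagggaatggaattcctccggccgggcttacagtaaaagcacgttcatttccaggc

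The GATA3 window holds 1 AP-2 match, from -223 to -215 relative to the start, and 60.8% of its bases are G or C. The RUNX1 window holds 2 matches, from -136 to -128 and from -85 to -77, and 71.2% of its bases are G or C. The promoter table matched 5 of the factors with 16 windows in all: 6 of GATA3, 6 of ESR1, 2 of TFAP2A and 1 each of FOXA1 and RUNX1. AP-2 matches lay in 4 of the 16, and in 19.8% of the 35116 promoters of the same length. The E-box CACGTG, which MYC, MAX and the Mondo proteins bind, lay in 1 of the 16 windows, a second GATA3 window, against 6.34% of all promoters. TGTGGT, the core site of RUNX proteins, lay in 2 of 16, against 11% of all. Both strands were searched. A T-box site, searched as GGTGTGA, lay in 0 of the 16 windows and in 2.76% of all promoters. A GATA site, searched as AGATAA, lay in 0 of 16 and in 9.17% of all promoters, and a forkhead site, searched as TGTTTAC, in 0 of 16 and in 2.98%. No match overlapped another.

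TBX3 (ENSG00000135111, chr12:114670254-114684164, minus strand, GRCh38) had 1, 0, 1 and 0 counts in knockout replicates 1, 2, 3 and 5, against 181, 168, 245 and 305 counts in the wild-type samples. All 4 knockout samples lay below the floor of 3 counts, and no wild-type sample came near it. In CPM these are 0.0103 ± 0.0119 in the knockout and 5.08 ± 1.14 in the wild-type (SD, n = 4 each). The 2 counts of the knockout group against 899 of the wild-type group give a wild-type over knockout ratio of 499 after scaling to library size, with a 95% counting interval of 138 to 4125. With 1 library left out the ratio ran from 370 without knockout replicate 5 to 753 without knockout replicate 3. The authors' variance-stabilized log2 values were 5.79, 5.59, 5.79 and 5.59 in knockout samples, where 5.59 is the value of a count of 0, against 8.15, 8.14, 8.36 and 8.63 in wild-type samples. In bulk samples fewer cells making a transcript and less transcript per cell cannot be told apart.

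TBX2 (chr17:61399896-61409466, plus strand), the closest relative of TBX3 and also a repressor, had 0, 6, 1 and 1 counts in knockout samples and 2, 0, 2 and 4 counts in wild-type samples. The groups overlap, the sums are 8 and 8, and TBX2 was too low to test. TBX3 therefore made up 2 of 10 counts of the pair in the knockout (20%, exact 95% interval 2.52 to 55.6, from 11.1% without knockout replicate 1 and 12.5% without knockout replicate 3 to 50% without knockout replicate 2) and 899 of 907 in the wild-type (99.1%, 98.3 to 99.6). At this depth no difference of TBX2 was detectable between the groups.

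**Figure D1:**
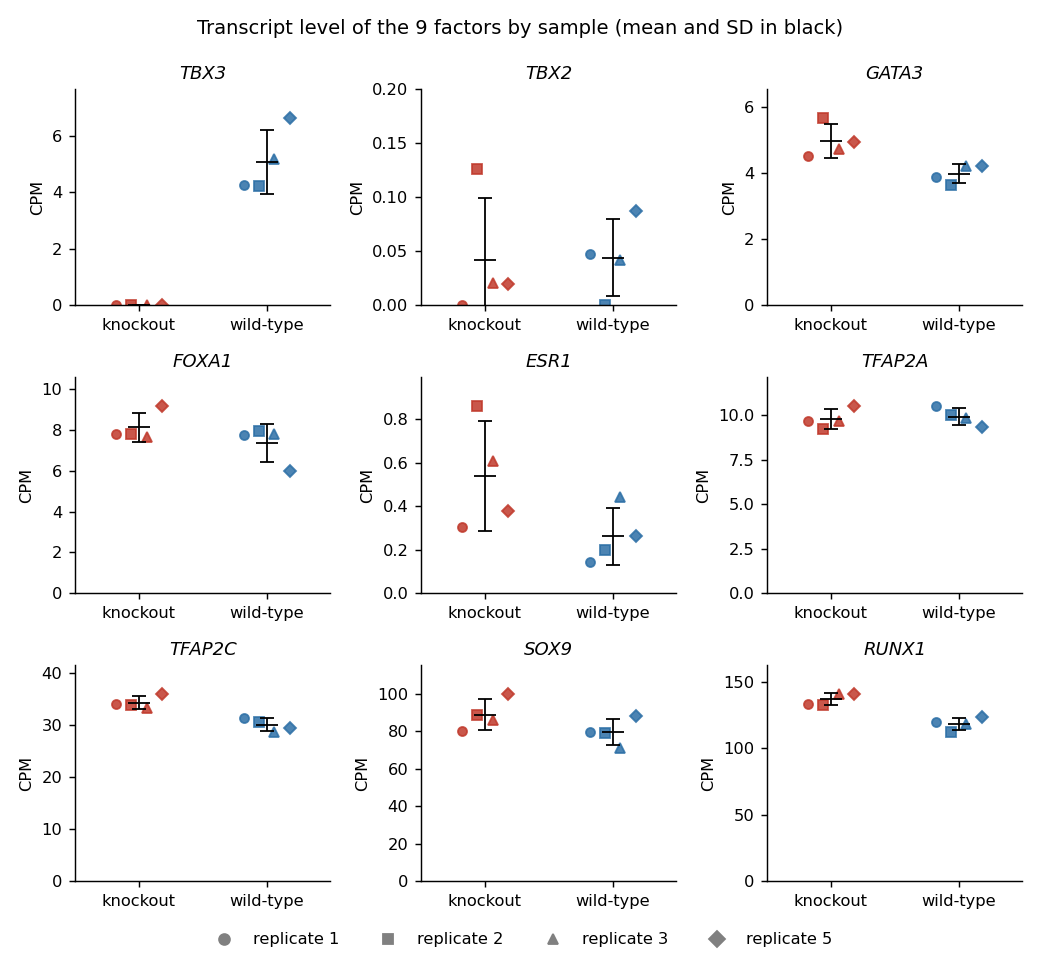
Each panel gives 1 factor in CPM on its own linear axis from 0, with 1 point per sample (the marker gives the replicate number) and the mean with its SD in black, knockout left of wild-type. TBX3 lies at 0.0103 CPM in the knockout and 5.08 CPM in the wild-type, and in no other panel is either group near 0 while the other is clearly expressed.

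Of the 7 other factors that were tested, 4 rose in the knockout, 0 fell and 3 did not pass, where 47.6% of all genes tested were called and 23.9% were called higher. The risers were GATA3, ESR1, TFAP2C and RUNX1. These counts come from a fit without a replicate block. With same-numbered samples as blocks SOX9 was called as well, so 5 of the 7 rose and 0 fell, where 52.7% of all genes tested were called. The groups did not overlap for GATA3, TFAP2C and RUNX1, all higher in the knockout, where 43.4% of all genes tested do not overlap, 21.3% higher and 22.1% lower. Read against that background, 4 calls among 7 factors are no result about the factors as a group. The 3 rises with groups that do not overlap were of 0.19 to 0.32 on the log2 scale.

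GATA3 (chr10:8045378-8075203, plus strand), a zinc-finger factor of luminal cells, was at 4.53, 5.68, 4.72 and 4.96 CPM in knockout samples, against 3.87, 3.63, 4.23 and 4.21 CPM in wild-type samples. Every knockout sample lay above every wild-type sample. The means were 4.97 ± 0.505 CPM in the knockout and 3.98 ± 0.286 CPM in the wild-type (SD, n = 4 each). This is 0.32 on the log2 scale (SE 0.11, adjusted p = 0.0195). The call was lost without knockout replicate 2 (adjusted p = 0.0945), wild-type replicate 1 (0.0506) or wild-type replicate 2 (0.0669). Set against the 25 nearest tested genes on each side, the change was 0.33 (adjusted p = 0.0150, limma).

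FOXA1 (chr14:37589984-37596059, minus strand) was at 7.82, 7.81, 7.67 and 9.20 CPM in knockout samples and 7.76, 7.94, 7.80 and 5.97 CPM in wild-type samples. Replicate 5 stood apart in both groups, high in the knockout and low in the wild-type, and the other samples were close to each other. The change of 0.14 on the log2 scale did not pass (SE 0.10, 95% interval -0.05 to 0.34, adjusted p = 0.254).

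ESR1 (chr6:151656691-152129619, plus strand), the oestrogen receptor, was near the lower limit of detection. It had 15, 41, 29 and 19 counts in knockout samples and 6, 8, 21 and 12 counts in wild-type samples, so the groups overlap, with the knockout higher in 4 of 4 same-numbered pairs. These counts are 0.538 ± 0.252 CPM in the knockout and 0.262 ± 0.131 CPM in the wild-type (SD, n = 4 each), and ESR1 rose by 1.002 on the log2 scale (SE 0.37, adjusted p = 0.0333). This call was lost in DESeq2 (adjusted p = 0.0625) and without knockout replicate 2 (0.165, change 0.68) or 3 (0.0794), or wild-type replicate 1 (0.105), 2 (0.0855) or 5 (0.0644). Relative to its chromosomal neighbours the change was 0.66 and did not pass (adjusted p = 0.123). ESR1 overlaps SYNE1 on the opposite strand, which had 33798 counts in the knockout and 20140 in the wild-type and rose by 0.59 on the log2 scale (adjusted p = 6.34e-10). ESR1 counts came to 0.308% of those of SYNE1 in the knockout (0.184% to 0.509% over samples) and 0.233% in the wild-type (0.124% to 0.393%). The strand setting of the counting is not given in the sources used here, and the part of SYNE1 in the ESR1 counts was not tested.

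TFAP2C (chr20:56629302-56639283, plus strand), the AP-2 factor best known from hormone-responsive breast cells, was at 34.0, 33.8, 33.1 and 36.01 CPM in knockout samples, against 31.4, 30.6, 28.7 and 29.5 CPM in wild-type samples. All 4 knockout samples were the higher ones. TFAP2C rose by 0.19 on the log2 scale (SE 0.05, adjusted p = 0.00532), from means of 34.2 ± 1.231 CPM in the knockout and 30.04 ± 1.22 CPM in the wild-type (SD, n = 4 each).

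TFAP2A (chr6:10393186-10419659, minus strand), its relative, was at 9.65, 9.20, 9.66 and 10.5 CPM in knockout samples and 10.5, 9.99, 9.85 and 9.31 CPM in wild-type samples. The groups overlap fully and no change passed (log2 change -0.02, SE 0.08, 95% interval -0.17 to 0.13, adjusted p = 0.845). The sign is not settled, since the change was 0.04 with library totals or upper-quartile factors. TFAP2A made up 22.2 ± 0.573% of the counts of the AP-2 pair in the knockout and 24.8 ± 0.670% in the wild-type (SD, n = 4 each). The knockout shares ran from 21.4% to 22.6% and the wild-type shares from 24.0% to 25.6%. The difference of -2.64 percentage points had a 2-sided exact permutation p of 0.0286, the smallest that 4 against 4 samples can give, in a test added after the data were seen that ignores the pairing by replicate number. The knockout share was the lower one in 4 of 4 pairs, and exchanging labels within pairs gave an exact p of 0.125. That is the smallest p this exchange can give with 4 pairs, so it could not pass and decides nothing about the paired difference.

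SOX9 (chr17:72121020-72126420, plus strand) was at 80.4, 88.6, 85.9 and 100 CPM in knockout samples and 79.5, 79.3, 71.3 and 88.0 CPM in wild-type samples. The groups overlap, with knockout above wild-type in 4 of 4 same-numbered pairs. Its change of 0.16 on the log2 scale (SE 0.07) did not pass without a replicate block (adjusted p = 0.0693) and passed with same-numbered samples treated as blocks (0.00297). It also passed with library totals (0.0373) or upper-quartile factors (0.0231), without the filter on low counts (0.0188), and without knockout replicate 1 (0.0221) or wild-type replicate 5 (0.0143). SOX9 did not pass in the other 11 alternatives, among them DESeq2 (0.104) and limma on the variance-stabilized values (0.0753). Relative to its neighbours the change was 0.11 (adjusted p = 0.208, limma), and without knockout replicate 5 it was 0.10 (adjusted p = 0.203).

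RUNX1 (chr21:34787801-36004667, minus strand) was at 133, 133, 141 and 141 CPM in knockout samples, against 120, 112, 118 and 124 CPM in wild-type samples. The groups do not overlap. Its log2 change of 0.21 (SE 0.05, adjusted p = 0.00064) was the most precisely measured of the 4 rises, and it was 0.21 relative to its neighbours as well (adjusted p = 0.000806, limma). RUNX1 and ESR1 had 0.418% and 0.613% of their 50-base windows in common with other genes, the 7 other factors had 0, and no window was common to 2 factors.

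**Figure D2:**
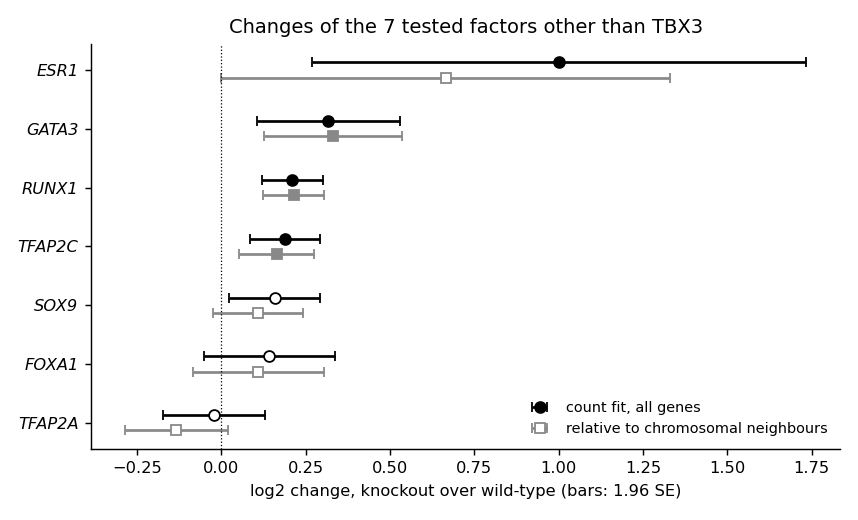
Log2 change, knockout over wild-type, of the 7 tested factors other than TBX3, in black from the count fit over all genes and in grey relative to 25 tested neighbours on each side. Bars are 95% intervals, filled symbols have an adjusted p below 0.05. ESR1 has the longest bars, and RUNX1, TFAP2C and GATA3 stay filled in both fits.

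Levels of different factors were compared per length, as CPM per kb of merged exons. Merged exons take in all annotated exons of a gene, 15574 bases for RUNX1 and 8274 for TFAP2A against 3935 for SOX9, 3436 for GATA3 and 3005 for TFAP2C. The order depends on these lengths, since in knockout CPM RUNX1 (137) stood above SOX9 (88.8) and TFAP2A (9.76) above GATA3 (4.97). Per length SOX9 was the highest in both groups, at 22.6 in the knockout and 20.2 in the wild-type. TFAP2C followed at 11.4 in the knockout and 9.997 in the wild-type, then RUNX1 at 8.81 in the knockout and 7.61 in the wild-type. FOXA1 was at 2.04 in the knockout and 1.85 in the wild-type. GATA3 stood above TFAP2A in the knockout (1.45 against 1.18) and overlapped it in the wild-type (1.16 against 1.198). TBX3 was the ninth and last in the knockout at 0.00174, overlapping TBX2 at 0.00693. In the wild-type it was seventh at 0.853, overlapping GATA3 in its range and well above ESR1 (0.0189) and TBX2 (0.00732). Apart from TBX3, the factors held the same order in both groups except for GATA3 and TFAP2A, which changed places and whose wild-type ranges overlap.

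**Figure D3:**
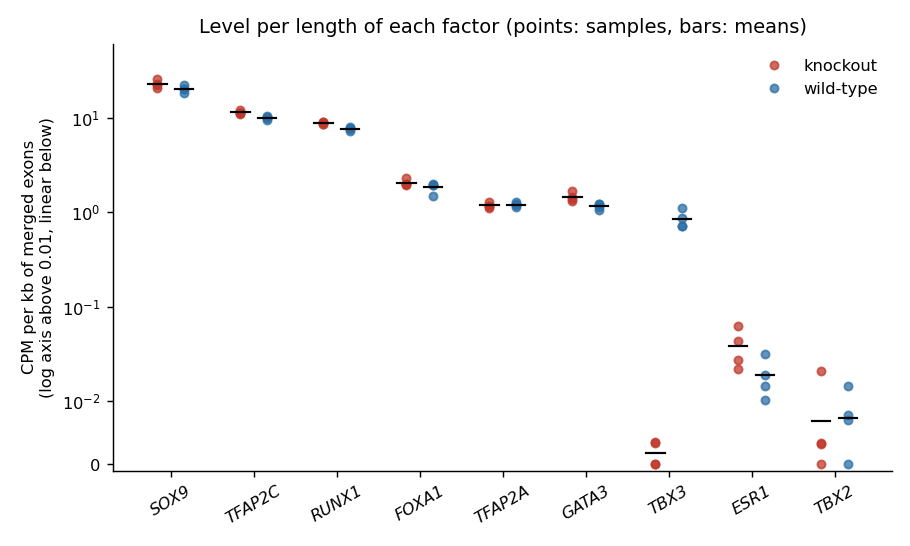
CPM per kb of merged exons for each factor, 1 point per sample and a bar for the mean, knockout left of wild-type, on an axis that is logarithmic above 0.01 and linear below. TBX3 is the factor whose groups lie far apart, at 0.00174 in the knockout and 0.853 in the wild-type.

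The tested genes around TBX3 showed no shared fall. TBX3 is read towards lower coordinates, and distances are from its start to that of the other gene, negative towards lower coordinates. On that side, past the 3′ end of TBX3, the nearest tested genes were RBM19 at -718 kb (log2 change -0.08, adjusted p = 0.191), SDSL at -1262 kb (1.04, 7.13e-09) and SLC8B1 at -1325 kb (0.19, 0.00134). On the side before its start they were ENSG00000258337 at 1497 kb (0.51, 0.155), MED13L at 1594 kb (-0.00415, 0.956) and MAP1LC3B2 at 1864 kb (-0.21, 0.0313). Apart from TBX3 no tested gene starts between -718 kb and 1497 kb, so the tested genes do not describe the stretch next to TBX3. Of these 6 genes, 2 rose and 1 fell, MAP1LC3B2 by 0.21. Of the 50 nearest tested genes, 12 rose and 10 fell, where 23.9% of all genes tested rose and 23.6% fell. The median change of the 50 was -0.01, with a range from -0.78 to 2.75. The lowest was RN7SKP71, chosen here after its value was seen. Of the 74 genes within 2 Mb, 17 were tested and 32 had no count in any sample, among them TBX5. TBX3-AS1 had 2 counts in the knockout and 2 in the wild-type, too few for a comparison.

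**Figure D4:**
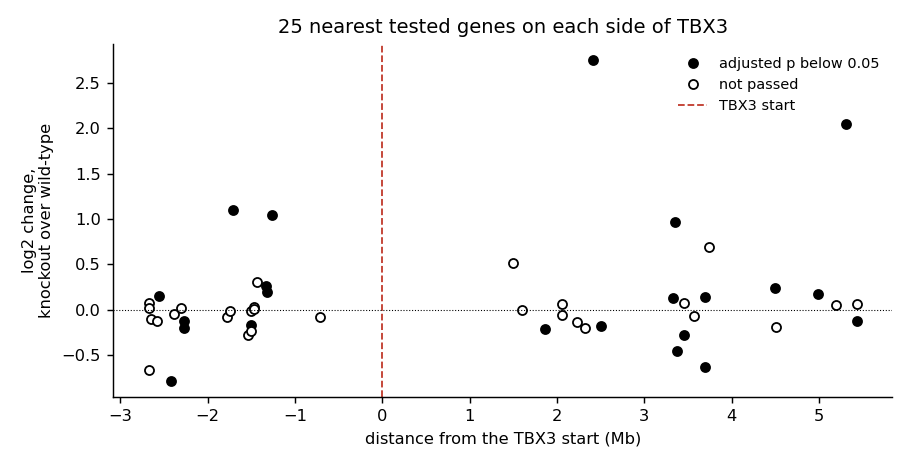
Log2 change, knockout over wild-type, of the 25 nearest tested genes on each side of TBX3 against their distance from its start in Mb, negative towards lower coordinates, where the 3′ end of TBX3 lies. Filled points have an adjusted p below 0.05. The points scatter about 0, from -0.78 to 2.75, with RBM19 at -718 kb as the nearest tested gene.

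The 5 protein-coding genes whose pattern over the 8 samples was most like that of TBX3 were found by the root-mean-square distance of centred log2 CPM among 13397 genes. They were CPE, a carboxypeptidase that processes prohormones, at 0.25 (4 counts in the knockout, 855 in the wild-type), and FBXL16, an F-box protein, at 0.38 (3 counts in the knockout, 667 in the wild-type). ZNF736, a zinc-finger gene, followed at 0.39 (17 counts in the knockout and 1739 in the wild-type), then GAL, the neuropeptide galanin, at 0.42 (0 counts in the knockout, 662 in the wild-type) and MAGEA12, a cancer-testis antigen, at 0.42 (0 counts in the knockout, 438 in the wild-type). All 5 are on other chromosomes than TBX3. Because they were picked for a pattern like that of TBX3 in these same samples, a knockout at or near 0 in each follows from the choice.

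Among the other 15 T-box genes, 6 were tested, 1 rose and 1 fell, where 23.9% of all genes tested rose and 23.6% fell. The list median was a log2 change of -0.01, against 0.00 over all genes tested. TBX19, known for its role in pituitary cells, was at 1.06 ± 0.297 CPM in the knockout and 0.548 ± 0.210 CPM in the wild-type (SD, n = 4 each), a log2 change of 0.93 (adjusted p = 0.00689) with overlapping groups. MGA, which pairs with MAX and carries a T-box, fell by 0.21 on the log2 scale, with 110.4 CPM in the knockout and 127.9 CPM in the wild-type (adjusted p = 0.0027). TBX1 (-0.18, adjusted p = 0.0929), TBX6 (-0.44, 0.0828), TBR1 (0.68, 0.0790) and EOMES (0.16, 0.736) did not pass. Calls were gained by TBX1 relative to its neighbours (adjusted p = 0.0437) and when wild-type replicate 2 (0.0343) or 3 (0.0419) was left out, by TBX6 when knockout replicate 3 was left out (0.0499) and by TBR1 when wild-type replicate 1 was (0.0159). Relative to neighbours 1 T-box gene rose and 2 fell. Per length, MGA and TBX1 stood above the wild-type level of TBX3, at 6.26 and 2.98 CPM per kb in the knockout and 7.25 and 3.38 CPM per kb in the wild-type.

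Of 15 paralogues of the other factors, 6 were tested and 3 fell, where 23.6% of all genes tested fell. The list median was a log2 change of -0.29. With library totals or upper-quartile factors 1 paralogue rose and 2 fell, and relative to neighbours 1 rose and 3 fell. GATA6 was at 10.3 ± 0.377 CPM in the knockout and 14.8 ± 0.563 CPM in the wild-type (log2 change -0.53, adjusted p = 1.83e-06). RUNX2, a factor of bone and of mammary progenitors, was at 26.1 ± 3.13 CPM in the knockout and 42.4 ± 4.83 CPM in the wild-type (log2 change -0.70, adjusted p = 2.27e-05). FOXA2 was at 47.5 ± 4.89 CPM in the knockout and 57.1 ± 5.51 CPM in the wild-type (log2 change -0.27, adjusted p = 0.0125; SD, n = 4 each), and the call was lost with library totals or upper-quartile factors. Per length FOXA2 stood above FOXA1, at 18.2 CPM per kb in the knockout and 21.9 in the wild-type, where FOXA1 was at 2.04 in the knockout and 1.85 in the wild-type.

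Of 20 partners and cofactors of the factors, 17 were tested, 8 rose and 3 fell, where 23.9% of all genes tested rose and 23.6% fell. The list median was a log2 change of 0.02, and relative to neighbours 6 of the list rose and 4 fell. NRIP1, a corepressor of the oestrogen receptor that the receptor itself induces, was at 23.0 ± 2.88 CPM in the knockout and 55.2 ± 5.96 CPM in the wild-type (SD, n = 4 each), a log2 change of -1.26 (adjusted p = 7.06e-08). PIAS1, a SUMO ligase, rose by 0.41 on the log2 scale (adjusted p = 2.15e-07), and LMO4, a LIM protein of the mammary epithelium, by 0.39 (adjusted p = 6.1e-07).

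Luminal genes went both ways. Of 30 listed, 18 were tested, 8 rose and 6 fell, where 23.9% of all genes tested rose and 23.6% fell. The list median was a log2 change of 0.13. STAT5A, which carries prolactin signals in the alveolar lineage, was at 0.655 ± 0.165 CPM in the knockout and 10.7 ± 0.927 CPM in the wild-type (log2 change -4.02, adjusted p = 3.82e-15). PRLR, the prolactin receptor upstream of it, went the other way, at 11.7 ± 0.572 CPM in the knockout and 2.28 ± 0.142 CPM in the wild-type (2.36, adjusted p = 2.76e-14). CD24, a surface protein of luminal cells, was at 9.52 ± 0.387 CPM in the knockout and 1.35 ± 0.254 CPM in the wild-type (2.81, adjusted p = 7.46e-14; SD, n = 4 each). Luminal keratins, named here after their values were seen, were abundant in both groups and did not share a direction. KRT8 was at 540.4 CPM in the knockout and 309.6 CPM in the wild-type, KRT18 at 362 CPM in the knockout and 288 CPM in the wild-type, and KRT7 at 364 CPM in the knockout and 199 CPM in the wild-type, and all 3 rose (log2 changes 0.80, 0.33 and 0.87, adjusted p = 2.7e-06, 6.96e-06 and 0.00382). KRT19 fell, with 50.3 CPM in the knockout and 79.4 CPM in the wild-type (log2 change -0.66, adjusted p = 0.00209). CDH1 (41 counts in the knockout, 1 in the wild-type) and PGR (18 counts in the knockout, 5 in the wild-type), both also named after their values were seen, were too low to test. A marker list of 7 luminal genes summed to 48.5 to 67.6 CPM in knockout samples and 81.9 to 101.9 CPM in wild-type samples, and KRT19 carried that sum, while EPCAM (0.03) and ERBB3 (-0.01) did not pass and ESR1 was higher in the knockout.

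Of 30 basal and progenitor genes, 21 were tested, 12 rose and 4 fell, where 23.9% of all genes tested rose and 23.6% fell. The list median was a log2 change of 0.29, and no set test was run. ID4, a helix-loop-helix inhibitor of basal mammary cells, was at 6.54 ± 0.513 CPM in the knockout and 1.05 ± 0.343 CPM in the wild-type (log2 change 2.63, adjusted p = 2.58e-11). BCL11A, a factor of triple-negative tumours, was at 4.11 ± 0.684 CPM in the knockout and 0.944 ± 0.111 CPM in the wild-type (2.12, adjusted p = 4.38e-10). LGR5, an R-spondin receptor of stem cells, was at 2.82 ± 0.140 CPM in the knockout and 0.662 ± 0.105 CPM in the wild-type (2.09, adjusted p = 7.59e-10; SD, n = 4 each). The list did not move as one. NGFR (log2 change -2.45, adjusted p = 1.28e-06) and EGFR (-0.39, 8.94e-07), named here after their values were seen, are among the 4 that fell. Keratins of this list, named here after their values were seen, differed in level. KRT6A and KRT6B had 0 counts in both groups. KRT5 and KRT14 were scarcely seen, with 4 and 9 counts in the knockout against 0 and 3 in the wild-type. KRT16 (24 counts in the knockout, 4 in the wild-type) and KRT17 (40 in the knockout, 5 in the wild-type) were also too low to test. KRT15 was tested and rose, with 5.58 CPM in the knockout and 2.73 CPM in the wild-type (log2 change 1.03, adjusted p = 1.1e-05).

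Of 30 oestrogen receptor targets, 25 were tested, 9 rose and 11 fell, where 23.9% of all genes tested rose and 23.6% fell. The median log2 change of the targets was -0.20, while ESR1 itself had 104 counts in the knockout and 47 in the wild-type. Relative to chromosomal neighbours 5 of the targets rose and 11 fell. The 3 of smallest p all fell, and they do not stand for the 9 targets that rose. CTSD, a lysosomal protease, was at 109 ± 7.60 CPM in the knockout and 198 ± 13.1 CPM in the wild-type (log2 change -0.86, adjusted p = 6.1e-11). CCND1, cyclin D1, was at 495 ± 10.1 CPM in the knockout and 799.8 ± 23.3 CPM in the wild-type (-0.69, adjusted p = 7.83e-11), and at -0.26 relative to its chromosomal neighbours. IGF1R was at 111.7 ± 5.48 CPM in the knockout and 164 ± 8.48 CPM in the wild-type (-0.56, adjusted p = 6.76e-09; SD, n = 4 each). PGR, XBP1, MYB and CDH1 stand in more than 1 list.

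Genes described elsewhere as repressed by TBX2 or TBX3 did not share a direction. Of 11 listed, 6 were tested, 2 rose and 2 fell (median log2 change -0.08). Over all genes tested 23.9% rose and 23.6% fell. Without the filter on low counts 9 of the list were tested, 4 rose and 2 fell, and DESeq2 also gave 4 rises and 2 falls. CDKN1A, the cell cycle inhibitor p21, was at 89.3 ± 1.26 CPM in the knockout and 43.9 ± 3.48 CPM in the wild-type (SD, n = 4 each; log2 change 1.02, adjusted p = 1.71e-12), and EGR1 rose by 0.43 (adjusted p = 0.00607). CDKN1C fell by 0.48 (adjusted p = 0.0077), a call that was lost relative to its neighbours (-0.12, adjusted p = 0.519). CDKN2A and CDKN2B, the classic TBX2 and TBX3 targets in other cells, had 0 counts in all 8 samples. Whether this line carries intact copies of these genes was not tested, so their counts allow no reading on TBX3.

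Of 28 genes of embryonic mammary signalling, 21 were tested, 12 rose and 6 fell, where 23.9% of all genes tested rose and 23.6% fell. The list median was a log2 change of 0.36, and no set test was run. BMP2 was at 4.497 ± 0.533 CPM in the knockout and 0.425 ± 0.0372 CPM in the wild-type (log2 change 3.39, adjusted p = 5.74e-13). WNT5A was at 22.1 ± 2.26 CPM in the knockout and 6.87 ± 0.406 CPM in the wild-type (1.69, adjusted p = 4.86e-13). LRP5, a WNT coreceptor, was at 41.1 ± 1.73 CPM in the knockout and 104 ± 8.44 CPM in the wild-type (-1.34, adjusted p = 6.22e-14; SD, n = 4 each), and at -0.91 relative to its neighbours. FGF10, a ligand that mammary buds need in mouse, had 0 counts in all 8 samples.

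Of 16 non-coding neighbours of the factors, 12 were in the table, 5 were tested and 1 fell, where 23.6% of all genes tested fell. The list median was a log2 change of -0.03. TFAP2A-AS1, antisense to TFAP2A, was at 0.306 ± 0.139 CPM in the knockout and 0.652 ± 0.0859 CPM in the wild-type (SD, n = 4 each; log2 change -1.08, adjusted p = 0.00511), while TFAP2A-AS2 (-0.03, 0.859) and LINC00511 near SOX9 (0.14, 0.346) did not pass. TFAP2A-AS1 shares its locus with TFAP2A, and the strand setting that would separate them is not given in the sources used here.

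**Figure D5:**
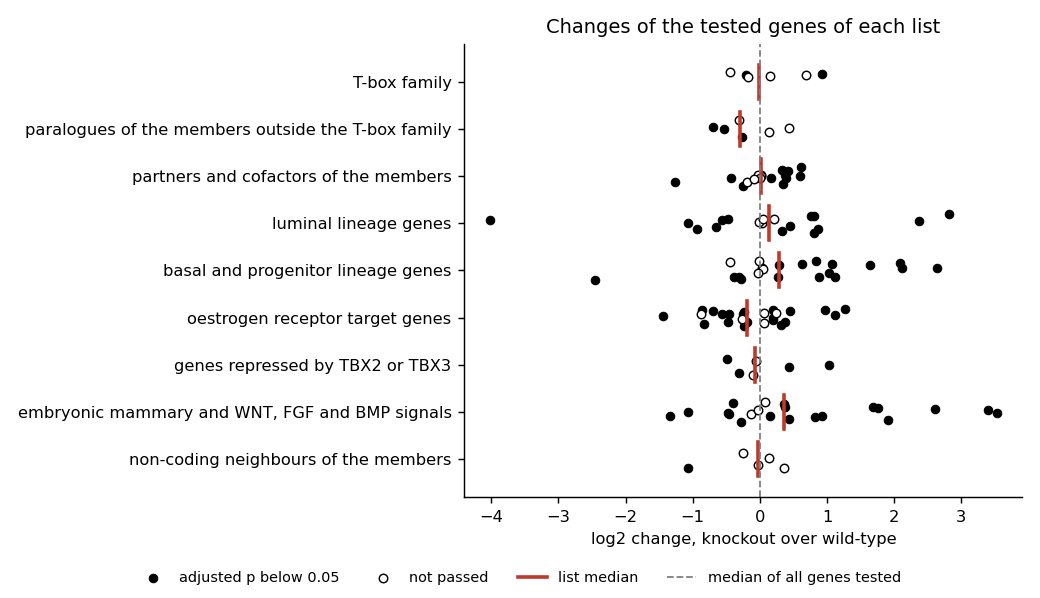
Log2 change, knockout over wild-type, of the tested genes of each list, with filled points for an adjusted p below 0.05, a red bar for the list median and a dashed line for the median of all genes tested. Basal and progenitor genes (0.29) and embryonic mammary signals (0.36) have the highest medians and the paralogues the lowest (-0.29).

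Most genes that mark other cell types were at low levels, with COL1A1 in both groups and KDR in the wild-type as exceptions. A list of 5 fibroblast genes summed to 18.1 to 20.4 CPM in knockout samples and 8.20 to 12.8 CPM in wild-type samples, a sum carried by COL1A1 (18.7 CPM in the knockout, 10.2 CPM in the wild-type), with 0 counts of DCN and 0 of LUM in the knockout against 2 and 8 in the wild-type. Leukocyte genes summed to 0.523 to 1.01 CPM in the knockout and 0.0634 to 0.472 CPM in the wild-type. Endothelial genes summed to 1.78 to 2.45 CPM in the knockout and 7.08 to 9.74 CPM in the wild-type. KDR carried that difference, with 0.143 CPM in the knockout and 7.12 CPM in the wild-type, while VWF rose (0.718 CPM in the knockout, 0.182 CPM in the wild-type, adjusted p = 8.28e-06) and PECAM1 and CDH5 did not pass. Their part in the results above was not tested.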

How the data were processed

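Transcripts of 8 samples were measured as counts, and the deposited table holds whole-number counts per Ensembl gene as the authors made them. Per the submitters' processing notes, the tools were FastQC 0.11.7, STAR 2.6.0c, Subread 1.6.2 with featureCounts, and DESeq2 1.23.10, and the build was hg38. The annotation release, strand setting and treatment of multimapped reads are not given in the sources used here. The authors also deposited log2-scale variance-stabilized values, used for an alternative fit.

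Gene names were found for 60333 of 60646 identifiers, and coordinates and exon lengths for the 58459 that GENCODE 29 (GRCh38) holds. Counts were fitted in R 4.3.3 with edgeR 4.0.16 (filterByExpr, trimmed-mean scaling, robust quasi-likelihood test) over 19877 genes, with group as the single term. The limma 3.58.1 package gave changes relative to 25 tested genes on each side, and DESeq2 1.42.0 an alternative. A test on simulated data used changes larger than the rises of GATA3, TFAP2C and RUNX1, so recovery of changes that small was not measured, and its share of false calls exceeded the nominal threshold. Tables and exact tests used pandas 2.3.3, numpy 2.4.6 and scipy 1.17.1. The 95% counting intervals and the floors of 3 counts reflect counting error alone.

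The labels give replicate numbers 1, 2, 3 and 5 in each group. Over 13344 genes, knockout and wild-type samples of one number deviated together from their means (r of 0.369, 0.148, 0.146 and 0.373), unlike pairs of different numbers (-0.302 to 0.0587). As all 4 exceed 0.1, same-numbered samples were regarded as pairs, on the labels and this check. The fit behind the results has no replicate block, so its p-values leave this pairing out, and a fit with one is an alternative.

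The 9 factors and the 9 gene lists were chosen with earlier results of these data known. Named genes are the 9 factors, the tested T-box genes, the 3 of smallest adjusted p of each other list (topped up by level), the 3 tested genes nearest TBX3 on each side, the 5 most like it, and DOT1L. Other names are said to be chosen after their values were seen or are given as counts of marker genes.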

Additional observations from a re-analysis of the deposited data

Results flagged for a closer look

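Of 80 groups of 4 samples checked over 40 genes, 6 held a sample whose gap to its nearest neighbour was too large a part of the range of the group by Dixon's 95% limit, and chance flags about 1 in 20. TBX2 was at 0.126 CPM in knockout replicate 2, against 0 to 0.0209 CPM in the other knockout samples. FOXA1 was at 9.20 CPM in knockout replicate 5 (others 7.67 to 7.82 CPM) and at 5.97 CPM in wild-type replicate 5 (others 7.76 to 7.94 CPM). LINC00511 was at 11.4 CPM in knockout replicate 5 (others 9.68 to 9.85 CPM) and at 6.76 CPM in wild-type replicate 3 (others 9.79 to 10.3 CPM). WNT5A was at 25.5 CPM in knockout replicate 5 (others 20.7 to 21.2 CPM).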

How the results depend on the processing

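The number of factors called besides TBX3 ran from 2 to 5 when 1 library was left out, with 2 (without knockout replicate 2, wild-type replicate 1 or wild-type replicate 2) as the lowest, and all calls were rises. The sign of TFAP2A turned, without a call, under library totals (0.041), upper-quartile factors (0.044) and a mean log2 CPM minimum of 1 (0.0077), and ran from -0.059 to 0.0050 with 1 library left out. The T-box list had 4 calls of 10 tested without the filter on low counts and 1 of 2 at that minimum, and the non-coding neighbours then had 0 calls. The paralogue list had 3 to 5 calls with 1 library left out, 5 of them without wild-type replicate 1. Treating same-numbered samples as a replicate block, 10472 genes were called, against 9458, and SOX9 was the one factor or named list gene whose call changed. Higher calls were 50.3% of all calls with trimmed-mean scaling, 61.2% with library totals and 61.9% with upper-quartile factors. Low counts limit ESR1, and TBX2 could not be tested.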
